A study of Mus musculus with 7 samples.

Results

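The cluster of miR-188, miR-362, miR-500, miR-501 and miR-532 is a group of microRNA (miRNA) hairpins on the mouse X chromosome, described here in primary myogenic progenitor cells grown or differentiated in culture. Its members were the TaqMan assays with a mouse or rat prefix for any arm of miR-188, miR-362, miR-500, miR-501, miR-502, miR-532 or miR-660. The rule found 8 of the 375 miRNA assays on the panel of 381: miR-188-5p, miR-188-3p, miR-362-3p, miR-500, miR-501-3p, miR-532-3p, miR-532-5p and rno-miR-532-5p, the rat version of the last. No assay of miR-502 or miR-660 was among them. The group was chosen from the levels reported below, measured against the small RNA MammU6 and against the median assay. Its values are therefore a description, no p of a member is given, and the counts of members past a threshold below support nothing.

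The cells were cultured from hind limb muscle of C57BL/6J mice and used at passage 3, and the labels give no age, sex or number of animals. In the proliferation course (Pro-2 and Pro-5, days 2 and 5) they grew on type I collagen in Ham's F-10 medium with 20% fetal bovine serum and 10 ng/ml FGF-2. In the differentiation course they attached for 24 h in that growth medium to plates coated with entactin, collagen IV and laminin, which is day 0 (Dif-0). They were then kept in DMEM with 2% horse serum until days 1, 2 and 5 (Dif-1, Dif-2 and Dif-5). Each of the 7 deposited samples pairs 2 of these 6 days, so the comparisons within differentiation share days. Every day has 4 unnumbered rows of Ct, the PCR cycle at which an assay crosses its threshold. Nothing in the labels tells if these are separate cultures or repeat wells, so SDs, standard errors and adjusted p-values cover only the spread between rows, which may be technical.

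miRNA clusters of this kind are cut from 1 primary transcript: Drosha releases each hairpin, and Dicer then frees a pair of arms, of which 1 usually persists on an Argonaute protein. The arms act on messenger RNAs mainly through their seed, which is the stretch from base 2 to base 8 at the 5′ end. This cluster lies within Clcn5, the gene of a chloride/proton exchanger of endosomes, in the same orientation as that gene. Levels of the mature arms can differ within 1 transcript, since processing and turnover act on each hairpin and arm separately.

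The mature sequences, credited to RefSeq on GRCm38.p6, are shown because seeds divide the members into groups that their shared locus does not. The seed is in capitals.
miR-188-5p: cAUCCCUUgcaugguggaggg
miR-362-3p: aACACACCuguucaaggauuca
miR-501-3p: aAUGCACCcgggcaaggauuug
miR-500-3p: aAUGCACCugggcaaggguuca
miR-500-5p: aAUCCUUGcuaucugggugcuuagu
miR-532-3p: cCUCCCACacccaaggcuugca
miR-188-3p: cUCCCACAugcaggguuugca
The mature sequence of miR-532-5p is not shown. miR-500-3p and miR-501-3p share the seed AUGCACC, which no other mouse mature miRNA in the table had. They differ at 4 of 22 bases, U9C, G18A, C21U and A22G, counted from the 5′ end with the base of miR-500-3p first. The assay called miR-500 does not name an arm, and cross-detection between it and the miR-501-3p assay was not tested. The other arm, miR-500-5p, shares AUCCUUG with miR-362-5p, which has no assay here. The seed of miR-188-5p was shared with miR-7061-3p and that of miR-362-3p with miR-329-3p, while those of miR-532-3p and miR-188-3p were each found once.

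In the order of transcription the hairpins are Mir532 (chrX:7248402-7248497), Mir188 (chrX:7247989-7248056), Mir362 (chrX:7241982-7242046), Mir501 (chrX:7241243-7241351) and Mir500 (chrX:7237683-7237774), all on the minus strand of GRCm38.p6. The 5 hairpins span 10815 bases of the transcribed strand of Clcn5 (chrX:7153810-7319358). They begin 70861 to 81584 bases downstream of the distant start, the annotated Clcn5 start farthest upstream. The nearer start, at 130644 bases, is the annotated start farthest downstream. It lies past all 5 hairpins, so a transcript from it does not run through them, while one from the distant start does. Any start between these was not examined.

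**Figure D1:**
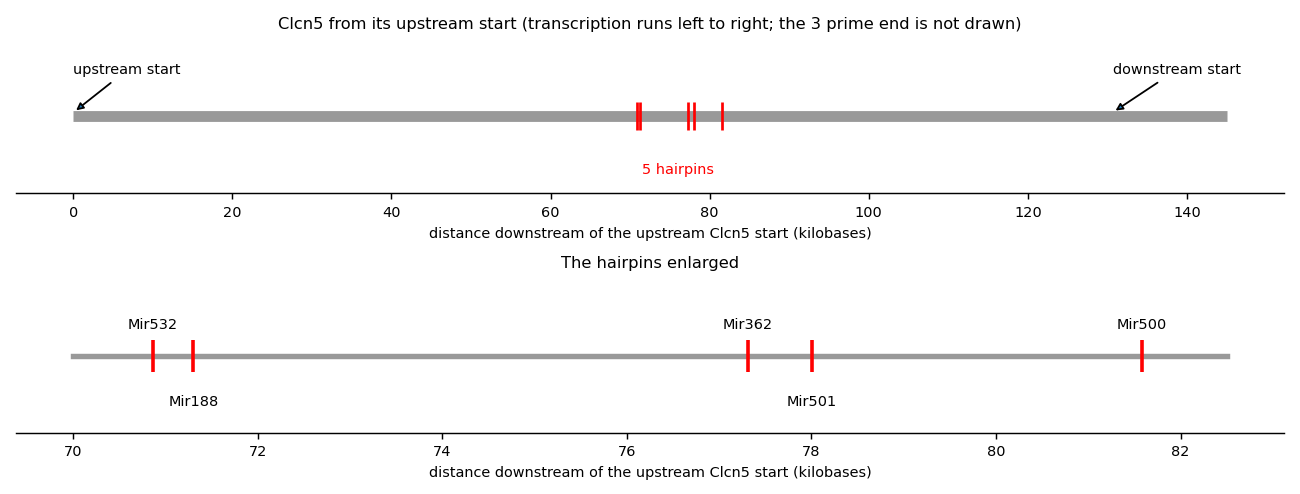
Position of the 5 hairpins in Clcn5, as distance in kilobases downstream of the upstream start; red bars mark the hairpins, and the lower line enlarges them. Mir532 and Mir188 lie together, Mir362 and Mir501 lie together, and Mir500 lies farthest, 81584 bases from the upstream start.

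The window around that distant start is shown because the members were higher together on Dif-2 and a transcript from it contains them. It covers chrX:7319309-7319608 on the minus strand of GRCm38.p6, 250 bases before the start and 50 after it. The capitals mark CAGCTG, an E-box of the kind bound by myogenic factors such as MyoD and myogenin; it reads the same on both strands.
Clcn5 upstream start: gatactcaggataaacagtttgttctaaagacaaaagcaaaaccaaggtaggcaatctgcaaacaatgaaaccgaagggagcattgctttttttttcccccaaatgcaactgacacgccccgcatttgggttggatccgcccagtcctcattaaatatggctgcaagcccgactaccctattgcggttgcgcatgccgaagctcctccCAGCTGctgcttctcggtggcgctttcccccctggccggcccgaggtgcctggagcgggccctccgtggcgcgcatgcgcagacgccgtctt
The motif occurred 1 time, at position 209 of the 300 bases, and 0 times in the window of the nearer start. Of 32851 windows of this length in the table, 16.3% held it, and a match describes the letters, not a bound site. Clcn5 RNA was not measured.

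Every one of the 7 assays other than miR-188-3p gave a Ct in all 24 rows, between 16.68 and 26.75, well before the limit of 35 set for testing. miR-188-3p, the other arm of the miR-188 hairpin, gave a Ct in 1 of 24 wells, 37.92 in row 2 of Dif-2, and entered no comparison. The plant control assay gave a Ct in 0 of 24 wells. A level below is the Ct of a reference minus the Ct of the assay in the same row, so 1 unit is a change of 2-fold if each cycle doubles the product. A higher value is a higher level. Assays differ in efficiency, so levels of the members are compared across days and not between assays. The sums of marker lists below add levels of different assays, with no correction for efficiency.

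Rows had a Ct for 248 to 271 miRNA assays, and 221 assays had one in all rows. MammU6, the main reference, crossed the threshold between cycles 12.3 and 13.85. It was late in row 1 of each differentiation day (13.25 to 13.85) and in row 2 of both proliferation days (13.61 and 13.64). In those rows several members stand high against MammU6, so values are also given against the median Ct of the 221 assays of the same row. That median itself lay 0.95 higher against MammU6 on Dif-2 than on Dif-0, and 1.24 higher on Dif-5. The muscle-restricted miR-1, miR-133a, miR-133b, miR-208b, miR-486 and miR-499 were all detected in all rows. Sums of a list are the log2 of the sum of 2 to the power of each level against MammU6, so the highest assay counts most. The muscle sum moved from between -2.42 and -1.47 on Dif-0 to between 1.39 and 2.08 on Dif-5. Its highest assay, miR-133a, had means of -2.13 and 1.43 on these days. The 5 assays for fibroblasts and smooth muscle were detected in all rows as well, with sums of -5.72 to -4.36 on Dif-0 and -5.51 to -4.33 on Dif-5. Sums for the 2 assays of endothelium moved from between -10.86 and -9.58 to between -9.77 and -8.88. The blood cell assays (2 of 4 in all rows) ran from -14.25 to -12.87 and then from -14.27 to -13.15. The epithelial ones (1 of 4) ran from -17.84 to -16.65 and then from -16.94 to -16.00. The neuronal ones (1 of 2) ran from -17.63 to -15.93 and then from -14.23 to -12.99. Each of these lists held at least 1 assay with a Ct in all rows, and the part of other cell types in the levels of the cluster was not tested. In such bulk RNA, fewer cells of a type and less RNA per cell cannot be told apart.

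The cluster was higher in the middle of differentiation than at its start. Against MammU6, the 7 assays were higher on Dif-2 than on Dif-0 by 1.18 to 2.12 on the log2 scale, or 2.26-fold to 4.35-fold, with a median of 1.89. By Dif-5 they no longer moved together against MammU6: the means of miR-500 and miR-501-3p were no lower than on Dif-2, while miR-188-5p changed by -1.22 from Dif-2. In growth medium all 7 means were higher on day 5 than on day 2, and every member's rows overlapped between those days. The median change of the members there was 1.15, beside 0.75 for all 242 assays tested. Against the row median assay it was 0.40, beside -0.004.

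**Figure D2:**
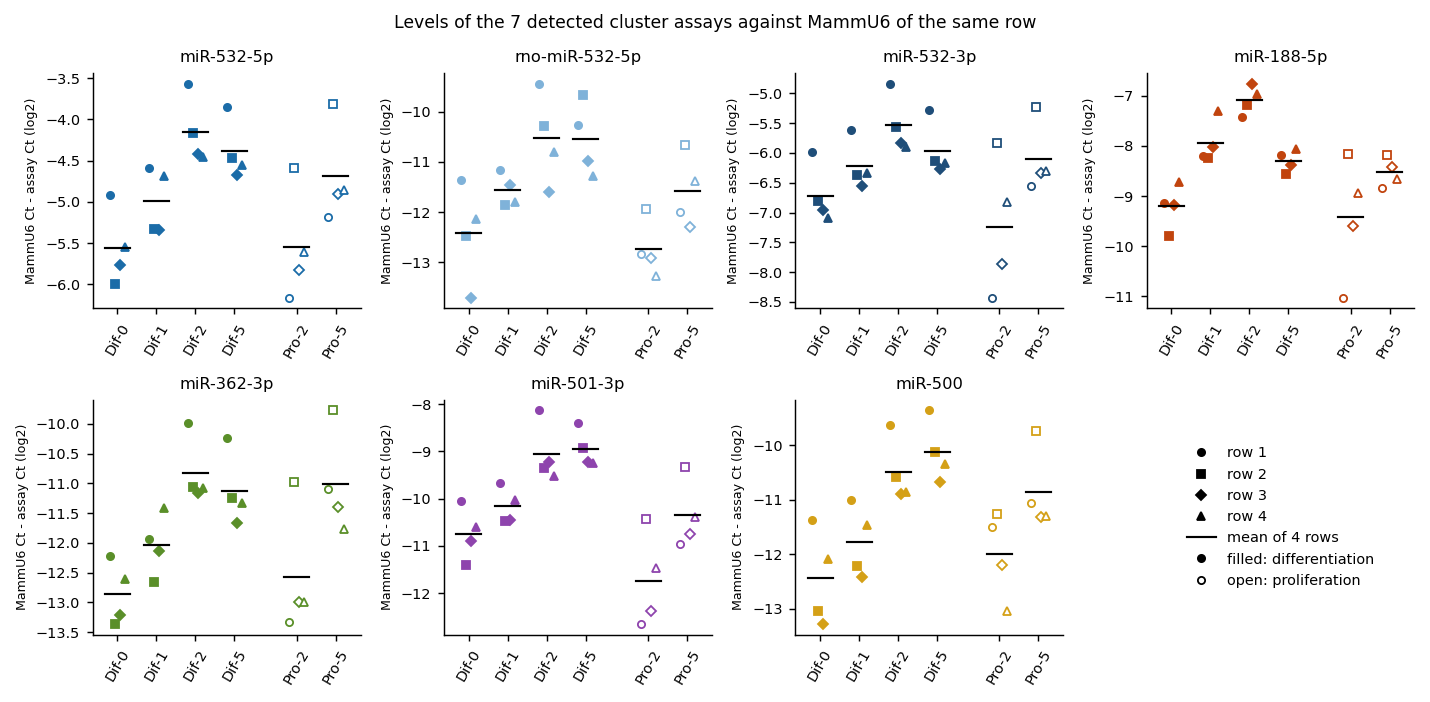
Levels of the 7 detected assays (MammU6 Ct minus assay Ct, log2) in each of the 4 rows of each day; symbols mark rows 1 to 4, filled for differentiation and open for proliferation, and lines are means. All 7 means are higher on Dif-2 than on Dif-0, and row 1 of differentiation and row 2 of proliferation often stand above the other rows.

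The Mir532 hairpin gave both arms. The level of miR-532-5p against MammU6 was -4.92, -5.99, -5.76 and -5.55 in rows 1 to 4 of Dif-0. It was -3.57, -4.17, -4.42 and -4.46 on Dif-2, so that all rows of Dif-2 lay above all rows of Dif-0. The change was 1.40 ± 0.32 (limma estimate ± SE, n = 4 rows on each day). On Dif-5 the rows were -3.85, -4.47, -4.67 and -4.55, a mean of -4.39 ± 0.37 (SD) against -4.16 ± 0.41 on Dif-2, with overlapping rows. In growth medium its level was -5.55 ± 0.68 on Pro-2 and -4.69 ± 0.60 on Pro-5 (SD, n = 4), and the rows overlapped. The 3p arm of the same hairpin, miR-532-3p, lay at -6.72 ± 0.50 on Dif-0, -5.54 ± 0.49 on Dif-2 and -5.96 ± 0.46 on Dif-5. Its Dif-2 rows ran from -5.90 to -4.84 and its Dif-0 rows from -7.10 to -5.99, without overlap. Its rows on Pro-2 were the widest of any differentiation or proliferation day for this assay, at -8.43, -5.83, -7.87 and -6.83.

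Set against each other in the same row, which needs no reference, the arms of this hairpin drifted slightly apart. miR-532-3p crossed its threshold 1.16 ± 0.30 cycles after miR-532-5p on Dif-0, 1.38 ± 0.08 on Dif-2 and 1.58 ± 0.10 on Dif-5 (SD, n = 4). The rows of Dif-0 ran from 0.82 to 1.55 and those of Dif-5 from 1.43 to 1.66, so they overlapped. On Pro-5 the difference was 1.41 ± 0.03, and on Pro-2 it fell into rows of 2.27, 1.24, 2.04 and 1.22. The rat assay for miR-532-5p gave a Ct 6.87 ± 0.72 cycles after the mouse assay on Dif-0 and 6.17 ± 0.66 on Dif-5. Against MammU6 its mean was also higher on the later days: -12.42 ± 0.97 on Dif-0, -10.54 ± 0.90 on Dif-2 and -10.55 ± 0.72 on Dif-5. Over the 24 rows against the row median assay, the mouse and rat assays correlated at 0.48. By its name the rat assay is for the same arm, on the same RNA, and no separate miRNA. What it detects in mouse RNA was not tested.

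miR-188-5p comes from the hairpin beside Mir532. Against MammU6 it was the 1 member past the threshold on Dif-1 and the 1 past it as lower from Dif-2 to Dif-5. The first call was made with no other reference, while a block on row position let 3 members pass on Dif-1, beside 7.14% of all assays. The count of members lower from Dif-2 to Dif-5 was 0 with U87, Y1 or the mean of 4 controls, beside 0.81% to 6.48% of all assays. It was 4 with the row median or snoRNA202, beside 19.8% and 21.1%. Over the 7 references tried, the change of miR-188-5p ranged from 0.92 to 1.36 from Dif-0 to Dif-1, past the threshold with 1 of them. From Dif-2 to Dif-5 it ranged from -1.61 to -0.88, past the threshold with 4. Its level against MammU6 was -9.13, -9.80, -9.17 and -8.71 in rows 1 to 4 of Dif-0. It was -8.20, -8.24, -8.02 and -7.30 on Dif-1 and -7.43, -7.18, -6.76 and -6.96 on Dif-2. Each of these days lay above Dif-0 in every row, and Dif-1 and Dif-2 overlapped. The change from Dif-0 was 1.26 ± 0.30 on Dif-1 and 2.12 ± 0.30 on Dif-2 (± SE, n = 4 rows a day). On Dif-5 the rows were -8.18, -8.56, -8.39 and -8.06, all below the lowest row of Dif-2 and all above the highest of Dif-0. The change from Dif-2 to Dif-5 was -1.22 ± 0.30, and Dif-5 stayed above Dif-0 by 0.90 ± 0.30. Its Pro-2 rows were -11.03, -8.16, -9.59 and -8.93, a spread larger than any of its changes within differentiation, and its Pro-5 mean was -8.53 ± 0.28 (SD).

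miR-362-3p, which shares its seed with miR-329-3p, lay at -12.22, -13.36, -13.21 and -12.61 on Dif-0. On Dif-2 it lay at -9.98, -11.06, -11.16 and -11.07, and on Dif-5 at -10.23, -11.25, -11.67 and -11.33. Both later days lay above Dif-0 in all rows and overlapped with each other. The changes from Dif-0 were 2.03 ± 0.40 on Dif-2 and 1.73 ± 0.40 on Dif-5 (± SE, n = 4 rows a day). In growth medium the rows were -13.32, -10.97, -13.00 and -12.99 on Pro-2, where row 2 is the row of late MammU6. On Pro-5 they ran from -11.77 to -9.77, so the days overlapped through that 1 row of Pro-2.

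miR-501-3p and miR-500 come from the hairpins farthest along the transcript, and their means on Dif-5 were the only ones of the 7 above those on Dif-2 against MammU6. miR-501-3p lay at -10.06, -11.41, -10.90 and -10.59 on Dif-0. It lay at -8.13, -9.35, -9.22 and -9.52 on Dif-2 and at -8.39, -8.92, -9.22 and -9.25 on Dif-5. All rows of both later days lay above those of Dif-0, by 1.69 ± 0.37 and 1.79 ± 0.37 (± SE, n = 4 rows a day). It was also the member with the widest gap between the media: its rows were -12.65, -10.43, -12.38 and -11.47 on Pro-2 and -10.95, -9.34, -10.74 and -10.39 on Pro-5. The lowest row of differentiation lay above the highest row of growth medium on day 2 and on day 5.

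miR-500 lay at -11.37, -13.04, -13.28 and -12.08 on Dif-0, at -9.64, -10.58, -10.90 and -10.86 on Dif-2 and at -9.36, -10.12, -10.68 and -10.34 on Dif-5. The rows of Dif-2 and Dif-5 overlapped, and both days lay above Dif-0 in all rows, by 1.95 ± 0.47 and 2.32 ± 0.47 (± SE, n = 4 rows a day). In growth medium its mean was -12.01 ± 0.80 on Pro-2 and -10.85 ± 0.75 on Pro-5 (SD).

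The divergence on day 5 also appears in Ct differences between members of the same row, which involve no reference. miR-500 crossed its threshold after miR-188-5p by 2.21, 3.40, 4.14 and 3.90 cycles in rows 1 to 4 of Dif-2 and by 1.18, 1.56, 2.29 and 2.28 on Dif-5. Of the Dif-2 rows only row 1 lay within the range of Dif-5, and the other 3 lay above it. miR-501-3p crossed its threshold after miR-532-3p by 4.07, 4.60, 3.94 and 3.49 cycles on Dif-0, by 3.29, 3.78, 3.38 and 3.62 on Dif-2 and by 3.11, 2.79, 2.95 and 3.08 on Dif-5. Dif-5 lay below Dif-0 and Dif-2 in all rows, a shift of the balance toward miR-501-3p. On both proliferation days that difference was larger, 4.49 ± 0.19 and 4.25 ± 0.17 (SD, n = 4), and every row lay above all rows of Dif-2 and Dif-5. The rows of Dif-0, when the cells had also been in growth medium, overlapped with those of both proliferation days. The miR-500 and miR-501-3p assays differed by 1.70 ± 0.47 cycles on Dif-0 and 1.18 ± 0.21 on Dif-5 with overlapping rows. Between the media the rows lay apart on day 5 only: the value was 0.50 ± 0.33 on Pro-5, where every row lay below those of Dif-5. On day 2 the rows overlapped, from -1.14 to 1.58 on Pro-2 and from 1.23 to 1.68 on Dif-2. Since the members were picked from these same Ct values, the differences are descriptions too.

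**Figure D3:**
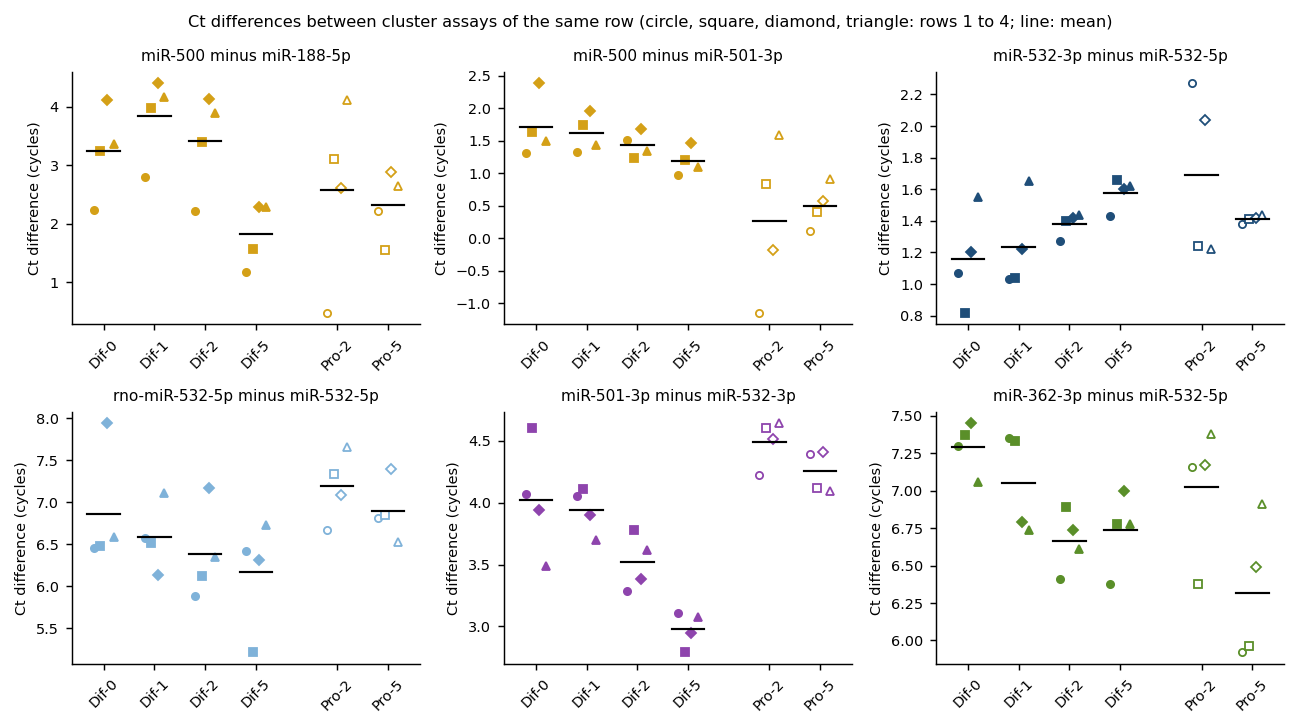
Ct of 1 cluster assay minus the Ct of another in the same row (cycles) on each day; symbols mark rows 1 to 4, filled for differentiation and open for proliferation, and lines are means. The difference between miR-501-3p and miR-532-3p is lowest on Dif-5, 2.79 to 3.11 cycles. It has its highest means in the proliferation course, with rows of 4.09 to 4.64, which overlap those of Dif-0, 3.49 to 4.60.

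The limma test was run on all miRNA assays with a Ct in at least 3 of 4 wells of both days and a mean Ct under 35 on 1 of them, with Benjamini-Hochberg adjustment at 0.05. Since this is the contrast that chose the members, their counts are set beside the share of all assays and nothing is read from them. From Dif-0 to Dif-1, 1 of 7 members was past the threshold and higher, miR-188-5p, where 1.68% of 238 assays were. Its call was lost without row 1, 2 or 3 of Dif-0, without row 1, 3 or 4 of Dif-1, and without row 1 of every differentiation day together. From Dif-0 to Dif-2 it was 7 of 7, beside 28.4% of 243, and the median change of the members was 1.89 beside 0.66 for all assays. The call of miR-532-3p there was lost without row 3 or 4 of Dif-0 or row 1 of Dif-2. From Dif-1 to Dif-2 it was 0 of 7, beside 11.6% of 241, with a median of 1.03 beside 0.60; at an unadjusted p under 0.05, 5 members and 24.5% of all assays were higher. Without row 4 of Dif-1, miR-188-5p and miR-362-3p passed, beside 16.9% of all assays. Without the rows of late MammU6, 4 of 7 passed there, miR-500, miR-501-3p, miR-532-3p and miR-532-5p, beside 14.8% of all assays. With the row position as a block, which the labels do not number, it was 7 of 7 beside 48.1%.

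From Dif-0 to Dif-5, 6 of 7 members were past the threshold and higher, all but miR-532-3p at 0.75 ± 0.35, beside 42.3% of 246 assays, with a median of 1.73 beside 0.89. Without row 2 of Dif-0 or row 4 of Dif-5 the call of miR-188-5p was lost, and without row 1 of Dif-0 miR-532-3p passed as well. From Dif-1 to Dif-5 these were miR-500 and miR-501-3p, 2 of 7 beside 32.9% of 243. The call of miR-501-3p was lost without row 2 or 3 of Dif-1 or row 1 of Dif-5, and miR-362-3p passed without row 4 of Dif-1. From Dif-2 to Dif-5, 0 of 7 were higher, adjusted or not, where 9.31% of 247 assays were, and 1 was lower, miR-188-5p, where 4.86% were. The median change there was -0.23 beside 0.16 for all assays. From Pro-2 to Pro-5, 0 of 7 were past the threshold beside 7.02% of 242, with changes of 0.86 to 1.56; at an unadjusted p under 0.05, 4 members and 28.9% of all assays were higher. Without row 2 of Pro-2, the row of late MammU6, 5 of 7 passed: miR-362-3p, miR-501-3p, miR-532-3p, miR-532-5p and the rat assay, beside 37.7% of all assays. Without row 2 of both days 4 passed beside 31.8%, and a block on row position gave 6 beside 49.2%.

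The same day in the 2 media was also set side by side, although no deposited sample pairs them. Medium, coating and any difference in plates or runs cannot be told apart in it. On day 2 all 7 members were past the threshold and higher in differentiation, beside 23.2% of 241 assays, by 1.39 to 2.68 with a median of 1.75 beside 0.36. The highest of these was miR-501-3p at 2.68 ± 0.45, followed by miR-188-5p at 2.35 ± 0.42 (± SE, n = 4 rows a day). Rows overlapped between the media for miR-362-3p and miR-532-3p, and the call of miR-500 was lost without row 1 of Dif-2 or row 3 or 4 of Pro-2. On day 5 only miR-501-3p passed, at 1.41 ± 0.45, 1 of 7 beside 11.8% of 246, and the median was 0.30 beside -0.07. That call was lost without row 1 of Dif-5 or row 1 or 3 of Pro-5, and without the rows of late MammU6 it passed together with the rat assay, beside 17.7% of all assays. miR-362-3p lay at -0.11 and miR-188-5p at 0.23 in that comparison.

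**Figure D4:**
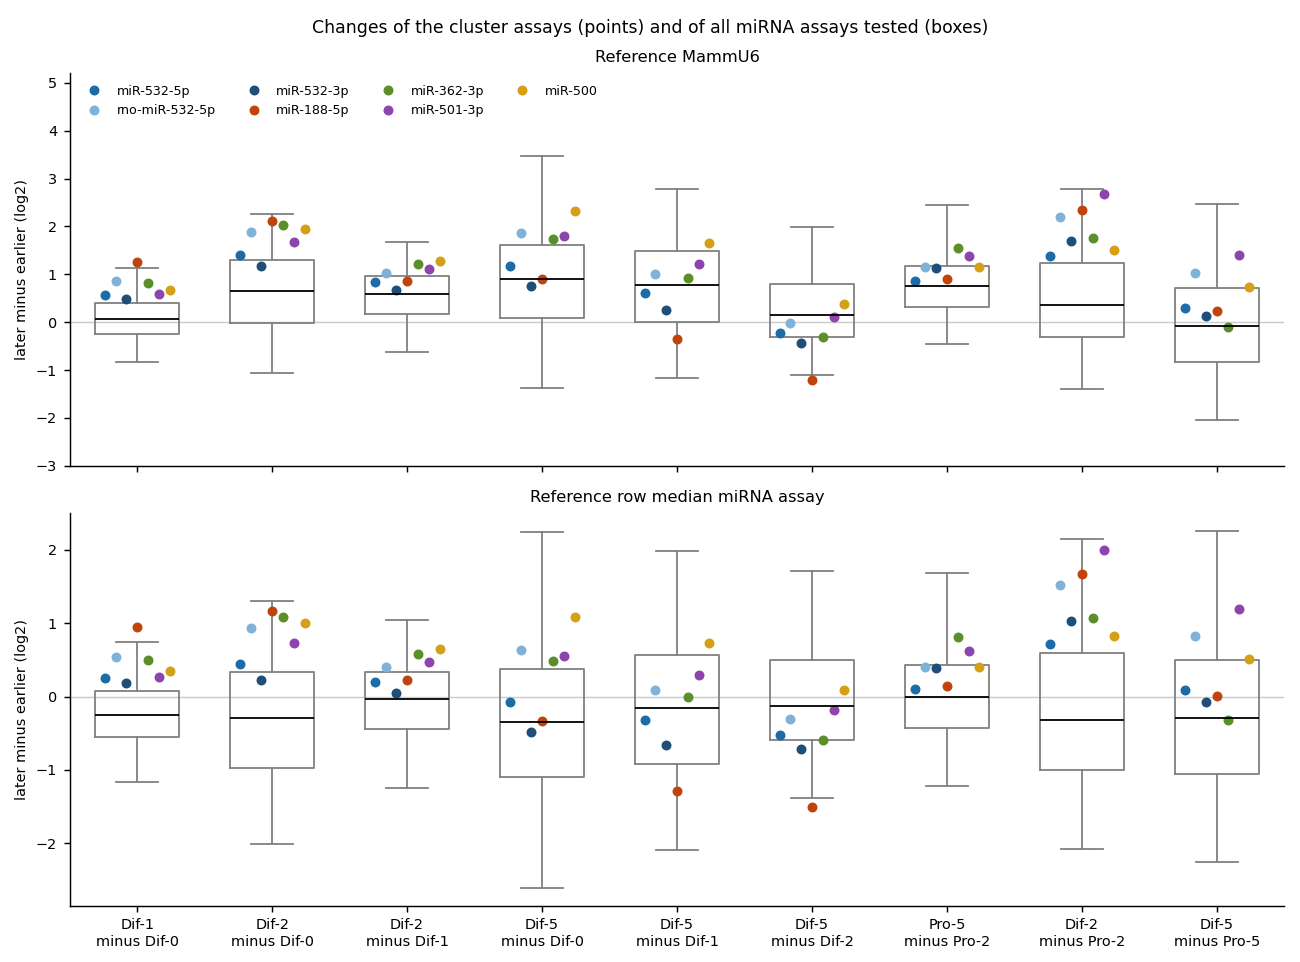
Change of each cluster assay (points) in the 9 comparisons of days beside all miRNA assays tested (boxes: quartiles and median, whiskers: percentiles 5 and 95), later or differentiation day minus the other (log2), against MammU6 above and the row median assay below. Against MammU6 the members lie between 1.18 and 2.12 from Dif-0 to Dif-2, and against the row median miR-188-5p lies at -1.50 from Dif-2 to Dif-5.

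Against the row median assay the members were again higher on Dif-2 than on Dif-0, with a median of 0.93, where the median of all assays was -0.30. Past the threshold and higher were 6 of 7, all but miR-532-3p at 0.23, beside 11.9% of assays. miR-188-5p lay at 2.24, 2.90, 3.64 and 3.60 above the row median in rows 1 to 4 of Dif-0, at 3.08, 4.39, 5.12 and 4.46 on Dif-2 and at 2.28, 2.43, 3.11 and 3.22 on Dif-5. Rows of Dif-0 and Dif-2 overlapped, and day 5 was back within the range of Dif-0. miR-500 lay at 0, -0.34, -0.47 and 0.23 on Dif-0, at 0.87, 0.99, 0.98 and 0.56 on Dif-2 and at 1.10, 0.87, 0.82 and 0.94 on Dif-5, with both later days above all rows of Dif-0.

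miR-501-3p lay at 1.56 ± 0.31 on Dif-0, 2.29 ± 0.32 on Dif-2 and 2.11 ± 0.11 on Dif-5 (SD, n = 4), beside 0.29 ± 0.81 on Pro-2 and 0.92 ± 0.45 on Pro-5. All rows of Dif-5 lay above those of Dif-0. miR-362-3p lay at -0.55 ± 0.25, 0.53 ± 0.15 and -0.06 ± 0.21 on Dif-0, Dif-2 and Dif-5. miR-532-3p lay at 5.58 ± 0.34, 5.81 ± 0.25 and 5.10 ± 0.16 on those days, its Dif-5 rows below all rows of Dif-2, and miR-532-5p at 6.74 ± 0.25, 7.19 ± 0.28 and 6.67 ± 0.14. The rat assay of miR-532-5p lay at -0.12 ± 0.52, 0.81 ± 0.44 and 0.505 ± 0.58 on those days. On this scale miR-500 was the one member with a higher mean on Dif-5 than on Dif-2.

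**Figure D5:**
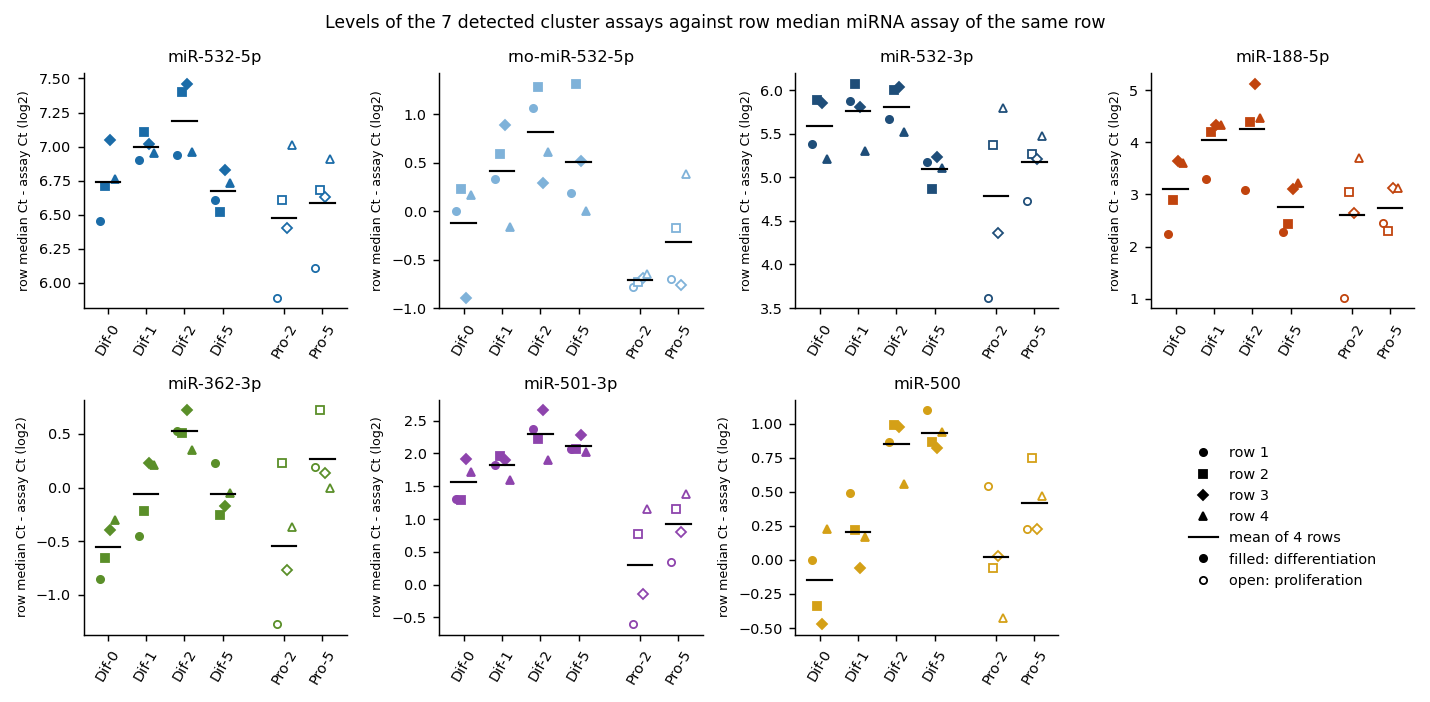
Levels of the 7 detected assays against the row median of 221 miRNA assays (row median Ct minus assay Ct, log2) in each of the 4 rows of each day; symbols, fills and lines as for the levels against MammU6. miR-188-5p peaks on Dif-2 and returns by Dif-5, while miR-500 lies between 0.82 and 1.10 on Dif-5.

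The direction on day 5 turned with the reference for several members. Against the row median 3 of 7 were past the threshold and higher than on Dif-0, miR-500 at 1.08, miR-501-3p at 0.55 and miR-362-3p at 0.49, beside 17.1% of assays. miR-188-5p, miR-532-5p and miR-532-3p lay at -0.34, -0.07 and -0.49, where all had been above 0 against MammU6. The rat assay of miR-532-5p did not turn: it lay at 0.63, not past the threshold. From Dif-2 to Dif-5, 0 of 7 were higher, adjusted or not, beside 15.4% adjusted, and 4 of 7 were lower beside 19.8%: miR-188-5p at -1.50, miR-532-3p at -0.71, miR-362-3p at -0.59 and miR-532-5p at -0.52. From Dif-1 to Dif-5, 1 of 7 was higher, miR-500 at 0.73, beside 19.8%, and 2 were lower, miR-188-5p at -1.28 and miR-532-3p at -0.66, beside 28.8%. From Dif-1 to Dif-2, miR-500 and miR-362-3p were higher, 2 of 7 beside 7.05%, and from Dif-0 to Dif-1 the count was 0 of 7 beside 2.1%, or 2 members beside 4.62% at an unadjusted p under 0.05.

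In growth medium, 0 of 7 were past the threshold from Pro-2 to Pro-5 beside 3.72%, with a median of 0.40, or 1 member beside 14% at an unadjusted p under 0.05. Between the media on day 2 it was 7 of 7 beside 19.1%, with a median of 1.07 where all assays had -0.32. On day 5 it was 3 of 7 beside 15%: miR-501-3p, miR-500 and the rat assay of miR-532-5p. The gap of miR-501-3p between the media was 2.00 on day 2 and 1.19 on day 5 on this scale.

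The muscle-restricted list, made of miRNAs known from skeletal or cardiac muscle cells, gives the course of differentiation beside the cluster. Against MammU6, 5 of its 6 tested assays were past the threshold and higher on Dif-2 than on Dif-0, beside 28.4% of all assays. The median change of the list was 2.85. From Dif-0 to Dif-5 the count was again 5, beside 42.3%, with a median of 4.05. From Dif-2 to Dif-5, 3 of 6 in the muscle list were past the threshold and higher, beside 9.31% of all assays. The median of the list was 1.17, where the cluster had -0.23. From Pro-2 to Pro-5 the median of the muscle list was 2.69 with 4 of 6, beside 7.02% of all assays. The cluster had 1.15 there with 0 of 7, and nothing is read from that count.

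The cluster was also set beside the other miRNA assays whose mature miRNA lies only on the X chromosome, 47 in all by RefSeq names, which matched 280 of the 375 assays. From Dif-0 to Dif-2, 20 of these were tested against MammU6, of which 8 were past the threshold and higher and 1 lower. Of all 243 assays, 69 were higher and 11 lower. The median of the X-linked list was 0.47 beside 1.89 for the cluster and 0.66 for all assays. From Dif-0 to Dif-5 the other X-linked assays had 10 of 21 higher and 2 lower, where 104 of all 246 were higher and 24 lower. Their median was 0.96 beside 1.73 for the cluster. From Dif-2 to Dif-5 their median was 0.35 beside -0.23, and between the media on day 2 it was 0.28 beside 1.75. These medians describe the lists and were not tested against each other.

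Among themselves the 7 assays correlated unevenly over the 24 rows against the row median assay, as a description in which all points share rows and days. The lowest coefficients were those of miR-500 with miR-532-3p, -0.13, with miR-188-5p, -0.05, and with miR-532-5p, 0.10. The highest were miR-188-5p with miR-532-5p, 0.89, whose hairpins are neighbours, and the 2 arms of miR-532, 0.87. miR-500 with miR-501-3p, from neighbouring hairpins, gave 0.41. Over the 6 day means, the mean profile of the cluster ran from -0.63 on Pro-2 and -0.16 on Dif-0 through 0.27 on Dif-1 to 0.63 on Dif-2 and back to 0.10 on Dif-5, centred on its own mean. Of the single members, rno-miR-532-5p followed that profile most closely (r = 0.97) and miR-500 least (r = 0.64). Each member is itself part of that mean, and both assays of miR-532-5p enter it, so these coefficients are raised by the overlap.

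Of the assays outside the cluster with a Ct in all rows, the 5 with the most similar 6 day means were miR-544 (r = 0.94), miR-96 (0.94), miR-381 (0.94), miR-675-3p (0.92) and miR-133b (0.89). Each of these had its highest day mean on Dif-2 and its lowest on Pro-2. miR-544 moved from -4.74 on Dif-0 to -3.74 on Dif-2 and -4.03 on Dif-5 relative to the row median. miR-96 moved from -7.86 to -5.11 and -6.25, and miR-133b, a muscle-restricted miRNA, from 7.66 to 9.10 and 9.01. With only 6 day means a high coefficient is easily reached, and it is given without a test.

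The authors' deposited table of fold changes against MammU6 holds 6 of the 8 members, all but miR-188-3p and rno-miR-532-5p. It gives miR-188-5p as 4.35 from Dif-0 to Dif-2 and as -2.32, a decrease, from Dif-2 to Dif-5. In the authors' deposited table miR-500 stands at 4.98 from Dif-0 to Dif-5. Over 1595 values of that table, the log2 of the fold differed from the levels computed here by at most 7.1e-10.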

How the data were processed

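Per the labels' protocols, total RNA was isolated with TRIzol and measured with TaqMan assays on an Applied Biosystems 7900HT over 40 cycles. The authors' sample files hold raw deposited Ct, another unit than counts, which were used here without the authors' normalization; software, threshold and pooling are not given in the sources used here. The authors' deposited value table holds a signed fold ratio against MammU6 for 231 assays. Its direction and scale were worked out from the Ct: later over earlier day in differentiation and day 2 over day 5 in proliferation, turned here to later over earlier. The 8 repeated day columns were identical and each was used once.

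Levels were reference Ct minus assay Ct, with undetermined wells left out. limma 3.58.1 in R 4.3.3 (lmFit, eBayes) was fitted over the 4 differentiation days, over both proliferation days and, between media, over all 6, on every miRNA assay tested, two-sided. It was also run on simulated data with known shifts and recovered most of them. Those shifts were larger than any change of a member against MammU6 reported here. The simulated MammU6 varied less than the measured one, and the simulated rows were independent. Recovery of changes of the size reported here was not tested. Tables and plots used Python 3.11.15, pandas 2.3.3 and matplotlib 3.10.9. All members are described; the 5 most similar assays were taken by correlation of day means. Alternatives were other references, Ct limits, undetermined wells at 40 cycles, the row position as a block, a fit on the days compared alone, leaving out rows and the authors' table. The members and lists were chosen with earlier results of these data known. Arrays of this kind have no count of reads, so precision is limited by the 4 rows.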

Additional observations from a re-analysis of the deposited data

Results flagged for a closer look

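In 6 of 84 groups of 4 rows (7 assays, 6 days and both references), 1 row stood far from the other 3 by Dixon's criterion, which chance alone meets in about 1 in 20 groups. Against MammU6 these were miR-362-3p on Dif-2 at -9.98, miR-532-3p on Dif-5 at -5.28, miR-362-3p on Pro-2 at -10.97 and miR-500 on Pro-5 at -9.74. The first 2 are row 1 of their day and the others row 2, the rows in which MammU6 was latest (13.25 to 13.85 and 13.61 to 13.64). None of these 4 was far from the others against the row median assay. Against the row median they were miR-188-5p on Dif-1, at 3.29 in row 1, and miR-501-3p on Dif-5, at 2.28 in row 3, above rows of 2.03 to 2.07.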

How the results depend on the processing

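The medians of the members were higher on Dif-2 than on Dif-0 under every alternative run. Except with Y1, the count there stayed at 6 or 7 of 7, beside 11.9% to 51% of all assays. With the row median assay as reference, 0 members were past the threshold from Dif-0 to Dif-1, beside 2.1% of all assays higher and 15.5% lower. Higher were 2 from Dif-1 to Dif-2 (beside 7.05%), 3 from Dif-0 to Dif-5 (17.1%) and 3 on day 5, differentiation minus growth medium (15%). From Dif-2 to Dif-5, 4 were lower (19.8%). The medians that moved by more than the spread of the rows were 0.93 (Dif-0 to Dif-2), 0.40 (Dif-1 to Dif-2), 0.49 (Dif-0 to Dif-5), -0.005 (Dif-1 to Dif-5) and 0.40 (Pro-2 to Pro-5). From Dif-0 to Dif-5, miR-188-5p turned to -0.34 and miR-532-5p to -0.07, while the rat assay of miR-532-5p stayed above 0 at 0.63. From Dif-0 to Dif-1 the count was 0 with snoRNA135, snoRNA202, U87, Y1, the mean of these 4 controls, a fit on those days alone and the rows of late MammU6 left out. Between 0% and 2.1% of all assays were higher in these settings, and 0% to 0.42% were lower. With Y1 the count was 3 and the median 1.05 from Dif-0 to Dif-2, beside 8.64% of all assays, and the median was 1.23 from Dif-0 to Dif-5. The count with Y1 was 0 from Dif-2 to Dif-5 (22.3% higher, 0.81% lower) and 3 between media on day 5 (18.7%). With snoRNA135 the count was 4 from Dif-1 to Dif-2 (beside 18.7%), 4 from Dif-1 to Dif-5 (40.7%) and 7 between media on day 5 (48.8%). The median was 1.14 in the last of these and 0.37 from Pro-2 to Pro-5. With snoRNA202 the count was 3 from Dif-1 to Dif-2 (beside 10.4%), 4, all lower, from Dif-2 to Dif-5 (21.1%) and 3 between media on day 5 (20.3%). Its medians were 1.05 (Dif-0 to Dif-5), 0.15 (Dif-1 to Dif-5) and 0.22 (Pro-2 to Pro-5). With U87 the count was 1 from Dif-1 to Dif-2 (beside 6.22%) and 1 from Dif-1 to Dif-5 (25.1%), the latter with a median of 0.38. It was 0 from Dif-2 to Dif-5 (16.6% higher, 6.07% lower) and 3 between media on day 5 (28%). With the mean of the 4 controls it was 2 from Dif-1 to Dif-2 (beside 9.96%) and 4 between media on day 5 (32.9%). It was 0 from Dif-2 to Dif-5 (17.4% higher, 6.48% lower), and the median from Dif-1 to Dif-5 was 0.51. With a mean Ct under 32 on both days the count was 2 from Dif-1 to Dif-2 (beside 15%). Of these references only the row median gave a median below 0 from Dif-1 to Dif-5, and the causes of these shifts were not tested.

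Leaving out the rows of late MammU6, an alternative chosen after seeing the data, gave 4 from Dif-1 to Dif-2, 4 from Pro-2 to Pro-5 and 2 between media on day 5, beside 14.8%, 31.8% and 17.7% of all assays. With the row position as a replicate block the counts were 3 (Dif-0 to Dif-1, beside 7.14% of all assays), 7 (Dif-1 to Dif-2, 48.1%), 5 (Dif-1 to Dif-5, 56%), 2, both lower (Dif-2 to Dif-5, 14.6%), and 6 (Pro-2 to Pro-5, 49.2%). The labels number no rows, so whether rows of the same position belong together is not known, and the main fit used no block. Across the assays outside the cluster with a Ct in all rows, rows of the same position correlated in their deviations from the day mean at 0.02 to 0.64 in differentiation and 0.23 to 0.37 in proliferation. In 15 of 16 and 8 of 8 rows the best match had the same position.

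With 1 row left out at a time the counts ran from 0 to 1 (Dif-0 to Dif-1), 6 to 7 (Dif-0 to Dif-2), 0 to 2 (Dif-1 to Dif-2), 5 to 7 (Dif-0 to Dif-5), 1 to 3 (Dif-1 to Dif-5), 0 to 5 (Pro-2 to Pro-5), 6 to 7 (media, day 2) and 0 to 1 (media, day 5), and the count from Dif-2 to Dif-5 was 1 throughout. Of all assays, 0.415% to 1.26%, 18.1% to 42.9%, 6.12% to 16.9% and 32% to 51.6% were higher in the first 4 comparisons, in that order. In the next 4 the shares were 20.6% to 35.5%, 3.72% to 37.7%, 18.1% to 30.3% and 10.9% to 13.8%. From Dif-2 to Dif-5, 2.43% to 6.88% were lower. The 2 members gained from Dif-1 to Dif-2 came without row 4 of Dif-1. For single members, 95 of 630 values under the other alternatives moved by more than the spread of the rows, and 2 changed sign after a call. Setting undetermined wells to 40 cycles and removing the Ct limit changed no count or median by these criteria. The 7 tested members had a Ct in every row, so these settings could reach their calls only through the other assays. The authors' table, with medians only, also changed none. It rests on the same Ct and the same MammU6, so it is no separate check. All 7 assays lay far from the detection limit, so the 4 rows and the choice of reference, rather than low signal, limit these values.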
